A study of Mus musculus with 4 samples.

Results

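Gdf10-positive astroglia of the adult mouse brain were the cells described here, a class labelled as being of the Bergmann glia type. Members were selected on their own counts: a barcode needed at least 400 genes and at most 20% mitochondrial unique molecular identifiers (UMIs), at least 3 detected genes of Aqp4, Gja1, Slc1a2, Slc1a3, Ntsr2, Atp1b2, Slc4a4 and Gjb6, at most 1 detected gene of Cldn5, Flt1, Mog, Tmem119 and P2ry12, and at least 1 UMI of Gdf10. Of 12487 barcodes, 10067 were within the quality limits, 2274 met the astroglial criteria and 192 of these carried Gdf10. The study profiled dissociated whole brains by droplet single-cell RNA sequencing to ask how enzymatic digestion alters transcription. All 4 animals were male C57BL/6J mice at postnatal day 90, all brains were digested enzymatically, and the labels placed all 4 libraries in 1 batch. In 2 animals no inhibitors were used, and in the other 2 transcription and translation inhibitors were present. Whole brains were dissociated, so no label gives the region a cell came from. The members numbered 45 and 59 in the no-inhibitor animals and 40 and 48 in the inhibitor animals. Each animal was 1 replicate, and values for 4 animals are given in the order no inhibitors replicates 1 and 2, then inhibitors replicates 1 and 2.

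Bergmann glia are the unipolar astrocytes of the cerebellar cortex, whose cell bodies lie among Purkinje cells and whose radial fibres ensheath the synapses on Purkinje cell dendrites. They are known for dense expression of the glutamate transporter GLAST, encoded by Slc1a3, and for AMPA receptors built of the Gria1 and Gria4 subunits without Gria2, which makes the receptors permeable to calcium. Gdf10, also called Bmp3b, is a secreted ligand of the transforming growth factor beta superfamily and is widely used to mark these cells.

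Gria4 and Timp4 are among the Bergmann glia markers used below, so they stood high by construction in the members that carried such markers. The start-site regions of Gdf10, which defined the members, and of Gria4 and Timp4 are shown so that their base composition can be compared. They are the RefSeq sequences (GRCm38.p6) from 250 bases before to 50 bases after the annotated start, at chr14:33923337-33923636 on the plus strand, chr9:4796185-4796484 on the minus strand and chr6:115252156-115252455 on the minus strand, printed from 5′ to 3′ with each GC box in capitals (GGGCGG on either strand, so CCGCCC where read from the other strand).
Gdf10: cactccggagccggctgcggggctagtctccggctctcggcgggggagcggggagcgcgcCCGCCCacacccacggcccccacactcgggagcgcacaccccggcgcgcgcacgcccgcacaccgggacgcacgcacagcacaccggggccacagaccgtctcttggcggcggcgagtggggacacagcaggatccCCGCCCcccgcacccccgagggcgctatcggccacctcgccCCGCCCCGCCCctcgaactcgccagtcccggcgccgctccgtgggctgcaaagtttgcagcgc
Gria4: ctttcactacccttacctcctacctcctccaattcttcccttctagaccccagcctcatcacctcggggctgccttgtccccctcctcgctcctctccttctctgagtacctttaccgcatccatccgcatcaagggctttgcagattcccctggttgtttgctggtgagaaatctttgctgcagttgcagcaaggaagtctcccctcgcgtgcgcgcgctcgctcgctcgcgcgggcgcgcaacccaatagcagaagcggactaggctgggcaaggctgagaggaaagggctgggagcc
Timp4: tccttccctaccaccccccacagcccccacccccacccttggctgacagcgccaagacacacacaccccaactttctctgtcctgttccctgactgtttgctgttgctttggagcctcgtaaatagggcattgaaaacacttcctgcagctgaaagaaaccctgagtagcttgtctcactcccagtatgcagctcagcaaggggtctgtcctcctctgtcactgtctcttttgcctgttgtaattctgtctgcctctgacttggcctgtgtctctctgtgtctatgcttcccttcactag
The Gdf10 region held 77.3% G or C, 42 CpG dinucleotides and 4 GC box matches, of which the last 2 overlap by 1 base. The Gria4 region held 59.7% G or C with 17 CpG, and the Timp4 region held 53.3% with 2 CpG. Neither of these held a GC box, and over 32851 RefSeq promoters of the same length the median was 52.7% G or C with 7 CpG. A GC box was found in 35.7% of those promoters, a TATA box (TATAAA) in 13.6% and the letters ACAAAG of a SOX motif in 18.7%. No match to either of the latter was found in the 3 windows, which says only that these letters are not there. The Gdf10 gene itself lies at chr14:33923587-33937983 on the plus strand in the GENCODE vM21 annotation of GRCm38.

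The label was examined first, against 12 Bergmann glia markers other than Gdf10 (A2m, Hopx, Timp4, Gria1, Gria4, Wif1, Mybpc1, Sept4, Gpr37l1, Dao, Fabp7 and Vim). The members were not of 1 kind. Outside the fibroblast and ependymal ranges described next, 6 or more of the 12 markers were detected in 60 of 192 members, which is 31.2% (exact Clopper-Pearson 95% interval 24.8 to 38.3%; all such intervals cover counting error only), while 102 members carried 5 or fewer. The remaining 30 members carried markers of other cell types: 23 had at least 2 of 6 fibroblast markers (Dcn, Lum, Col1a1, Col1a2, Col3a1 and Slc6a13) and 7 had at least 3 of 6 ependymal markers (Ccdc153, Tmem212, Rarres2, Foxj1, Dynlrb2 and 1700012B09Rik). These 4 ranges were set after the counts had been seen and are ranges of a marker score, not cell types, so they are described without a test. The lower limit for Bergmann markers fell in a sparse stretch, since 10 members outside the fibroblast and ependymal ranges had 4 or 5 markers and 10 had exactly 6, against 92 with 3 or fewer. The label therefore held for the 60 members with many Bergmann markers and went against the counts of most others, which are called by their Gdf10 UMI alone. Over the 60 cells, the median number of detected neuronal markers was 0, and that of fibroblast and ependymal markers was also 0, which the ranges keep low by construction. The median was 3 for 6 non-telencephalic astrocyte markers, and 2 each for 8 telencephalic astrocyte, 8 oligodendrocyte and 6 olfactory ensheathing markers. The olfactory ensheathing markers include Fabp7 and Mybpc1, which also set the Bergmann range, so their median is raised by construction.

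**Figure D1:**
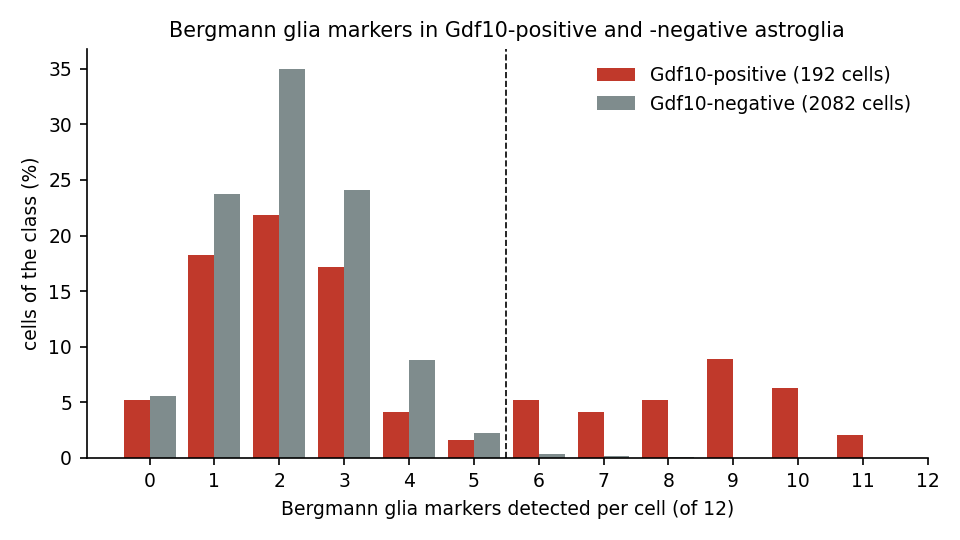
Percent of the cells of each class (vertical axis) by the number of 12 Bergmann glia markers detected (horizontal axis), for 192 Gdf10-positive (red) and 2082 Gdf10-negative (grey) astroglia, with the limit of 6 markers dashed. Gdf10-negative cells fall off to 2.26% at 5 markers and 0.336% at 6, whereas Gdf10-positive cells rise again to 8.85% at 9 markers.

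Gdf10 counts, which the selection used, are given for the ranges as a description. Of the 192 members, 113 carried a single Gdf10 UMI, 21 carried 2 and 58 carried 3 or more, up to 21 in 1 cell. Those with 6 or more Bergmann markers had a mean of 5.22 Gdf10 UMIs, and 47 of 60 had at least 3 while 8 sat at 1. Those with few Bergmann markers had a mean of 1.19, and 86 of 102 sat at exactly 1 UMI, just inside the limit, while 3 had at least 3. Among cells just outside it, with 0 Gdf10 UMIs, 10 of 2082 Gdf10-negative astroglia carried 6 or more Bergmann markers and neither other marker set. Seen the other way, 60 of 70 astroglia in the Bergmann range had a Gdf10 UMI, which is 85.7% (75.3 to 92.9%, median depth 2757 UMIs). The share was 5.03% of 2027 few-marker astroglia (4.12 to 6.08%, median depth 1558 UMIs). In the larger non-astroglial classes it was lower, at 0.258% of 3483 microglia-like cells (0.118 to 0.490%, median depth 1395 UMIs), 0.158% of 1895 endothelial-like cells (0.0327 to 0.462%) and 0.333% of 902 oligodendrocyte-like cells (0.0686 to 0.969%). Smaller classes varied, from 4.92% of 61 ependymal-like cells (1.03 to 13.7%), near the few-marker share, to 0 of 67 progenitor-like and 0 of 22 oligodendrocyte precursor-like cells. Between them lay 1.61% of 124 neuron-like, 1.47% of 136 mural-like and 0.829% of 362 choroid plexus-like cells. With each cell thinned to 1000 UMIs the shares were 70.1%, 3.32% and 0.168% for Bergmann-range astroglia, few-marker astroglia and microglia-like cells, in the same order. For ependymal-like cells it was then 0 of 49 (0 to 7.25%). At least 2 UMIs of Gdf10 in place of 1 left 79 members, of which 52 (65.8%) were in the Bergmann range. At the other limits of the selection, 13 members had exactly 3 astroglial genes and 41 had exactly 1 exclusion gene, while 12 cells with Gdf10 had exactly 2 astroglial genes and 7 had exactly 2 exclusion genes and were left out. In all, 43 of 235 cells with a Gdf10 UMI were not members, and 13 of these 43 carried at least 2 fibroblast markers.

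Between animals the makeup of the class was uneven. The Bergmann range held 17, 16, 9 and 18 members, the few-marker range 24, 36, 19 and 23, the fibroblast range 3, 5, 10 and 5, and the ependymal range 1, 2, 2 and 2. Fibroblast-marker members were the deepest, with a median of 7142 UMIs against 2904 in the Bergmann range and 2021 in the few-marker range. They therefore supplied 18.1% and 22.9% of member UMIs in the no-inhibitor animals, and 51.9% and 32.8% in the inhibitor animals. These shares did not overlap between the groups, and the fibroblast share accompanies each comparison below.

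**Figure D2:**
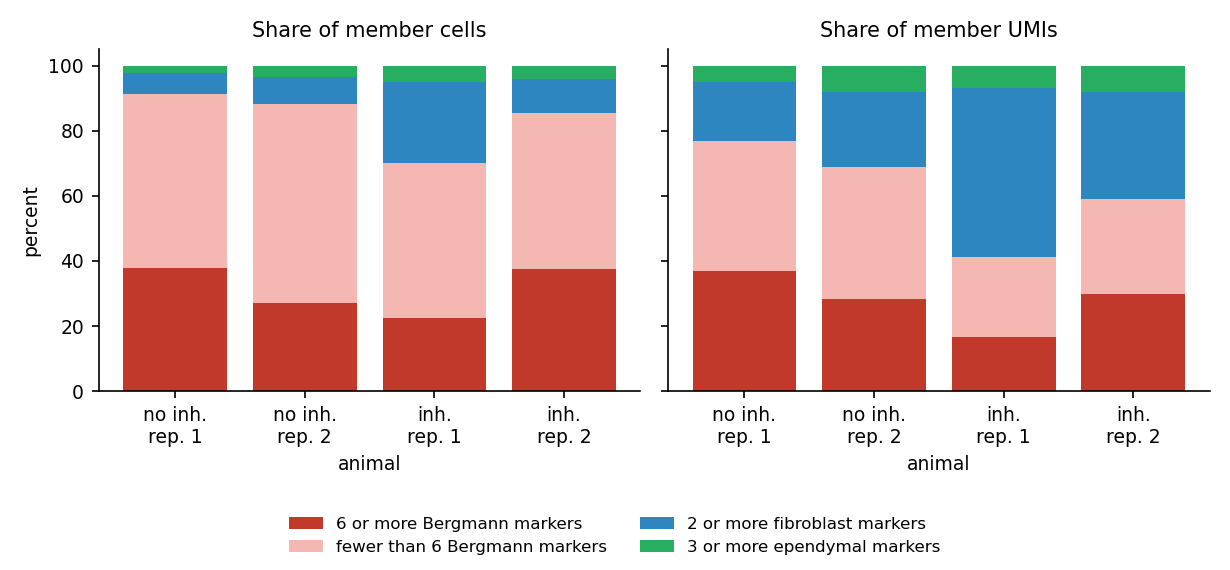
Makeup of the members in each of the 4 animals as a percent of member cells (left) and of member UMIs (right), stacked by marker range. Blue, the members with 2 or more fibroblast markers, is 6.67 to 25.0% of cells and 18.1 to 51.9% of UMIs.

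Fibroblast-marker members had a median of 4 of the 8 astroglial genes, against 7 over all members. Gja1, the gap junction protein connexin 43, was detected in 23 of these 23 cells and Gjb6, connexin 30, in 22, at pooled levels of 1134 and 681 CPM (UMIs of a gene per 1000000 UMIs of the class). Aqp4, the water channel of astrocyte endfeet, was detected in 2 and Slc1a3 in 5 of the 23, against 43 and 60 of the 60 Bergmann-range members. Slc4a4 was detected in 15, Slc1a2 in 13 and Atp1b2 in 9 of the 23. Of the 23, 7 had exactly the required 3 astroglial genes. Their leading genes, ranked by their ratio to Gdf10-negative astroglia, were Sfrp4, Cdh1, Prg4, Tspan11, Slc9a2, Eya2, Bche, Slc47a1, Nov and Crispld1, and 2731 of all 2770 member UMIs of Mgp, which encodes matrix Gla protein, came from them. Dcn was detected in 9, Col1a2 in 23 and Slc6a13 in 0 of them, the last of which allows a UMI in up to 13% of such cells.

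Depth was similar across animals. Cells within the limits numbered 2125 to 2876 per library with median depths of 1452 to 1694 UMIs, and members had medians of 2276 to 2689 UMIs. Members held 644811 UMIs in all against 4246963 in Gdf10-negative astroglia, with medians of 2442 and 1593 UMIs per cell. Simulated doublet scores placed 6 members (4 of them in the Bergmann range) among 206 cells left out in an alternative, and 67 barcodes occurred in more than 1 library, 1 of them a member.

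The first comparison was how common the members were with and without inhibitors. As a share of cells within the limits they were 1.91% (1.65 to 2.19%), or 2.05% ± 0.0638 without inhibitors and 1.78% ± 0.151 with them (SD, n = 2 animals each). As a share of astroglia they were 8.44% (7.33 to 9.66%), or 8.17% ± 0.231 and 8.76% ± 0.0158. Neither pair of groups overlapped, but with 2 animals against 2 the two-sided exact permutation test gave p = 0.333 for both, the smallest value it can give. The directions differed with the denominator, as astroglia were themselves 25.1% ± 0.0737 and 20.3% ± 1.76 of cells. Bergmann-range cells were 32.4% ± 7.54 of members without and 30% ± 10.6 with inhibitors, and these groups overlapped (exact permutation p = 0.667).

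The second comparison set the members against the 2082 Gdf10-negative astroglia of the same animals, to ask what else distinguished cells with a Gdf10 UMI. UMIs were summed per animal and class, the 14 genes of the selection were left out, and the animal was kept as a block in edgeR's quasi-likelihood test with Benjamini-Hochberg adjustment. Calls needed an adjusted p under 0.05 together with a log2 fold change beyond 0.58 in either direction. Of 7705 genes tested, 503 were higher (6.53%) and 419 lower (5.44%) in members; DESeq2 called 356 higher and 146 lower. Among those called higher were 9 of 20 tested Bergmann glia genes, 4 ZIC genes and 3 fibroblast markers, and among those called lower 8 of 20 genes of glutamate, GABA and glycine handling. Without the fibroblast- and ependymal-marker cells, an alternative added after the data had been seen, 6102 genes were tested, 210 were higher (3.44%) and 137 lower (2.25%). Of the calls, 235 were made in the same direction both ways, which is 25.5% of 922 and 67.7% of 347.

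Some Bergmann glia genes were higher in members. Of 25 listed, 20 were tested, 9 were higher and 1 lower, with a median log2 fold change of 0.65 against 0.0028 over all genes, and 11 were higher and 1 lower of 20 without the other-marker cells. Gria4, an AMPA receptor subunit of Bergmann glia, was at 275, 208, 142 and 223 CPM in members and 16.1, 16.2, 8.57 and 20.01 CPM in Gdf10-negative astroglia. The classes did not overlap in any animal (log2 fold change 3.73 ± 0.25 (SE), adjusted p = 1.12e-17). Sept4, a septin of Bergmann glia processes, was at 1045, 831, 536 and 855 CPM against 155, 149, 123 and 198 CPM (log2 fold change 2.32 ± 0.15 (SE), adjusted p = 9.97e-18). Timp4, an inhibitor of matrix metalloproteinases, was at 1031, 1129, 588 and 1084 CPM against 330.0, 366, 304 and 350.1 CPM (log2 fold change 1.42 ± 0.14 (SE), adjusted p = 1.96e-11). Each of these was higher in 4 of 4 animals, with the lowest member value in inhibitors replicate 1, the animal with the largest fibroblast-marker share.

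The same genes showed how concentrated the pattern was within the class. Pooled over animals, Gria4 stood at 695, 4.59 and 49.7 CPM in Bergmann-range, few-marker and fibroblast-marker members, and was detected in 48 of 60, 1 of 102 and 6 of 23 cells. Sept4 stood at 2582, 188 and 94.5 CPM in the same order, so that few-marker members were near the Gdf10-negative level of 155 CPM. Dao, the D-amino acid oxidase that degrades D-serine, stood at 478, 4.59 and 29.8 CPM, and A2m, which encodes the protease inhibitor alpha-2-macroglobulin, at 378, 22.9 and 0 CPM. Since markers such as these set the ranges, the contrast between ranges restates that choice. All 12 UMIs of Wif1, a secreted Wnt inhibitor, and 35 of 37 of Mybpc1 were in the Bergmann range. Cacng5, Gpd1 and Abi3bp, which set no range, were among the leading genes of the Bergmann range by their ratio to Gdf10-negative astroglia, so they are high there by choice. Cacng5, an auxiliary subunit of AMPA receptors, stood at 334, 9.18 and 19.9 CPM, Gpd1, the glycerol 3-phosphate dehydrogenase of the cytosol, at 634, 27.5 and 19.9 CPM, and Abi3bp, an extracellular matrix protein, at 250.4, 0 and 14.9 CPM. Slc1a3, a gene of the selection, stood at 8023, 3942 and 308 CPM and Aldoc, the brain aldolase, at 5937, 4185 and 288 CPM, against 2092 and 2699 CPM in Gdf10-negative astroglia.

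**Figure D3:**
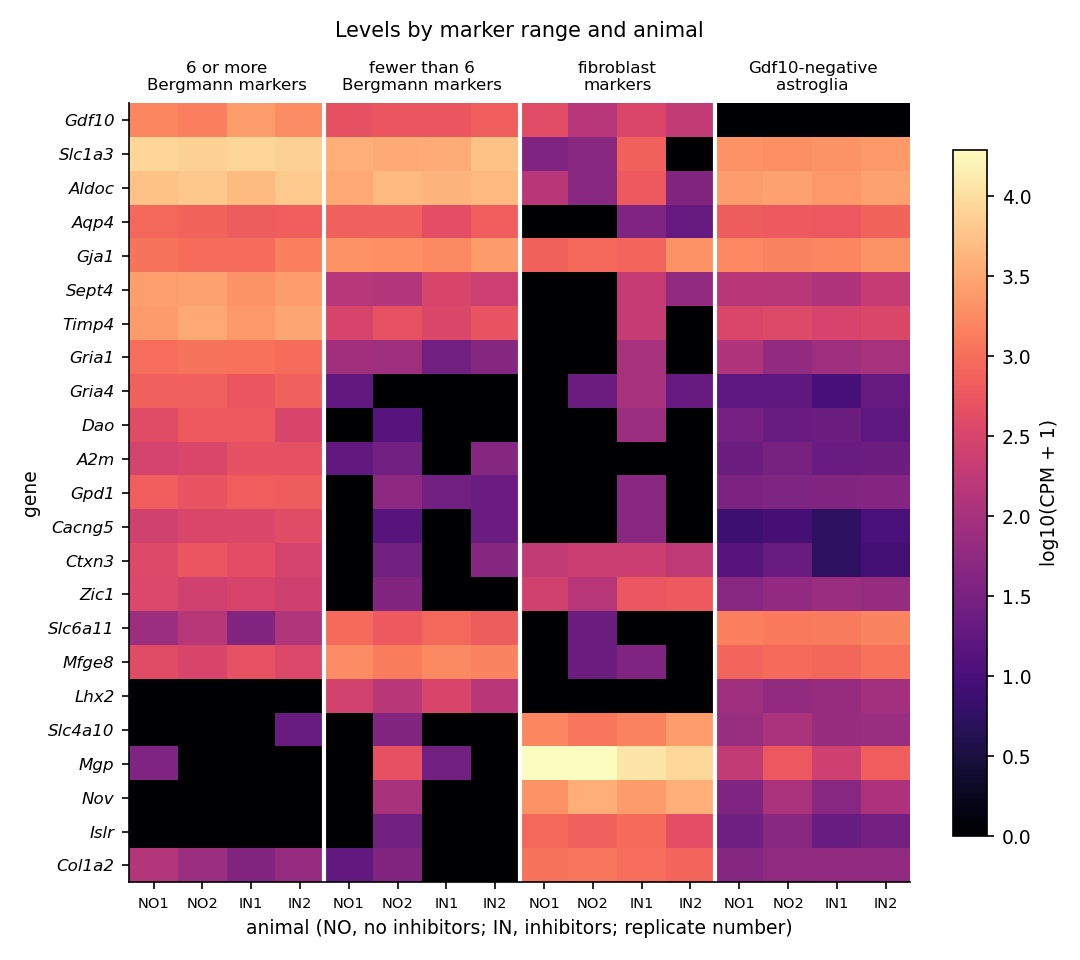
Levels of 23 genes (vertical axis) on a log10(CPM + 1) colour scale in 3 marker ranges of the members and in Gdf10-negative astroglia (blocks), each in the 4 animals (horizontal axis). Sept4, Timp4, Gria1, Gria4, Dao, A2m, Gpd1 and Cacng5 are high in the Bergmann block in every animal, Lhx2 is listed at 0 there, and Mgp, Nov and Slc4a10 are high in the fibroblast-marker block.

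Transmitter receptors and transporters changed in both directions. Of 14 receptor genes tested, 2 were higher and 5 lower. Gria1 was at 399, 357, 233 and 299.8 CPM in members against 123, 60.5, 80.3 and 95.6 CPM, with no overlap (log2 fold change 1.82 ± 0.18 (SE), adjusted p = 6.54e-12). Gria2, the subunit that blocks calcium entry, was at 488, 383, 168 and 338 CPM against 801, 647, 622 and 715 CPM, also without overlap and in the opposite direction (log2 fold change -1.11 ± 0.16 (SE), adjusted p = 3.74e-07). Within the class Gria2 stood at 184, 858 and 0 CPM in the Bergmann, few-marker and fibroblast ranges, of which the Bergmann range was set partly by Gria1 and Gria4. Grin2c, a subunit of NMDA receptors, and Gabbr2, of GABA-B receptors, were lower, with log2 fold changes of -0.72 and -1.16, and neither passed without the other-marker cells (-0.35 and -0.91).

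Of 20 genes for the handling of glutamate, GABA and glycine, 3 were higher and 8 lower in members. Slc6a11, the GABA transporter GAT-3, fell most, at 391.8, 325, 219.7 and 229.6 CPM against 1379.7, 1241, 1302 and 1579 CPM (log2 fold change -2.30 ± 0.16 (SE), adjusted p = 8.6e-17). It stood at 106, 748 and 4.97 CPM in the 3 ranges, and no animal overlapped. Slc6a9, the glycine transporter GlyT1, had a log2 fold change of -1.14. Slc38a1, a glutamine transporter, was higher, at 612, 453, 414 and 683 CPM against 170.2, 198, 283 and 186 CPM (log2 fold change 1.32 ± 0.17 (SE), adjusted p = 1.01e-07), and the difference was larger without the other-marker cells (log2 fold change 2.71 ± 0.17 (SE), adjusted p = 9.62e-22). Dao was higher at 151, 181, 142 and 95.7 CPM against 29.3, 21.4, 23.6 and 15.6 CPM (log2 fold change 2.62 ± 0.26 (SE), adjusted p = 6.49e-12). Slc6a6, the taurine transporter, was the remaining higher gene, and 35 of its 42 member UMIs came from fibroblast-marker cells.

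Genes of regional identity differed in level between the ranges. Of 5 tested genes of the hindbrain and cerebellum, 4 were higher and 0 lower, namely Zic1, Zic2, Zic4 and Zic5, transcription factors of the dorsal midline and cerebellum. At an unadjusted p under 0.05 the same number, 4, passed. Zic1 was at 186, 128, 349 and 293 CPM against 46.3, 58.2, 72.8 and 65.6 CPM (log2 fold change 1.86 ± 0.20 (SE), adjusted p = 8.47e-11), with 295, 13.8 and 448 CPM in the 3 ranges, so both Bergmann-range and fibroblast-marker members carried it. Without the other-marker cells Zic1 was still higher (1.83 ± 0.29 (SE), adjusted p = 1.34e-06). Of the 5 genes, only 3 could be tested without those cells, and 3 were higher. Of 6 non-telencephalic astrocyte markers, 0 were higher and 5 lower, among them Agt, which encodes angiotensinogen, with 241, 122, 90.5 and 89.3 CPM against 456, 416, 392.1 and 487 CPM (log2 fold change -1.78 ± 0.19 (SE), adjusted p = 3.56e-10). Of 7 telencephalic astrocyte markers, 0 were higher and 1, Slc7a10, was lower. Lhx2, a transcription factor of the forebrain, gave no call for the whole class (log2 fold change 0.01), but it had no UMI in the Bergmann range, and 46 of its 49 member UMIs were in few-marker cells. Hes5, a Notch effector, stood at 11.1, 739 and 4.97 CPM and Grm3, the astrocyte metabotropic glutamate receptor, at 5.56, 225 and 0 CPM.

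The pathway to which Gdf10 belongs was sparse outside Gdf10 itself. Of 16 other ligands of the TGF-beta and BMP families, 7 were tested and 2 were higher, Bmp4 and Bmp5, with 28 member UMIs each, of which 28 and 27 came from fibroblast-marker cells. Of 7 receptors tested, 2 were higher, Bmpr1a (log2 fold change 0.71) and Tgfbr1 (1.02), and both missed the limits without the other-marker cells (0.32 and 0.12). Of 16 Smads, targets and inhibitors tested, 5 were higher. Id4, an inhibitor of basic helix-loop-helix factors, was at 1217, 1288, 756 and 1142 CPM against 579, 655, 664 and 581 CPM (log2 fold change 0.76 ± 0.14 (SE), adjusted p = 5.79e-05), with 2265, 1119.6 and 139 CPM in the ranges, and was still higher without the other-marker cells (1.32 ± 0.10 (SE), adjusted p = 5.05e-17). Id1 stood at 44.5, 124 and 726 CPM and Id3 at 139, 711 and 909.9 CPM in the 3 ranges, and both missed the limits without the other-marker cells. Fstl1, a secreted BMP antagonist, changed direction (log2 fold change 1.13 in all members and -1.37 without other-marker cells). Smad9 was higher with 24 member UMIs.

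Other gene groups gave calls in both directions, to be read against 6.53% higher and 5.44% lower over all genes. In the Hedgehog pathway, 3 of 9 tested genes were higher, of which Gas1, a coreceptor, was at 199, 245, 168 and 204 CPM against 58.6, 87.0, 104 and 70.0 CPM (log2 fold change 1.32 ± 0.19 (SE), adjusted p = 3.97e-07). Hhip and Cdon, the other 2, had 38 of 44 and 24 of 24 member UMIs in fibroblast-marker cells, and Ptch1 did not pass (log2 fold change -0.17) although it stood at 573, 184 and 49.7 CPM over the ranges. In the Notch pathway, 0 of 11 were higher and 1, Lfng, was lower. Of 22 genes of glycolysis and glycogen, 2 were higher and 3 lower. Ldha, the lactate dehydrogenase A subunit, was higher at 241, 245, 246 and 172 CPM against 94.6, 136, 82.5 and 94.5 CPM (log2 fold change 1.09 ± 0.18 (SE), adjusted p = 6.21e-06), and Slc2a1, the glucose transporter GLUT1, was lower (-1.45). Of 17 astroglial transcription factors, 4 were higher and 1 lower. Hopx and Etv5 were higher, with log2 fold changes of 1.39 and 0.75, Sox8 was lower (-1.59), and Sox9, which is common to astrocytes, did not pass (-0.26). Of 5 reactive astrocyte genes tested, 3 were higher, of which Vim, the intermediate filament vimentin, stood at 495, 13.8 and 109 CPM in the ranges, while Gfap did not pass (0.27). Of 15 immediate-early genes tested, 3 were higher and 2 lower, and of 12 heat shock genes 1 was higher and 2 lower; without the other-marker cells 0 of 14 and 0 of 10 were called by edgeR. Of 12 water, potassium and gap junction genes, 1 was higher and 3 lower. Gjb2, connexin 26, was higher with fibroblast-marker cells present and did not pass without them (log2 fold changes 1.80 and -0.20), and Kcnj10, the potassium channel Kir4.1, was lower in all members (-0.82) but not past the limits without those cells (-0.39).

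**Figure D4:**
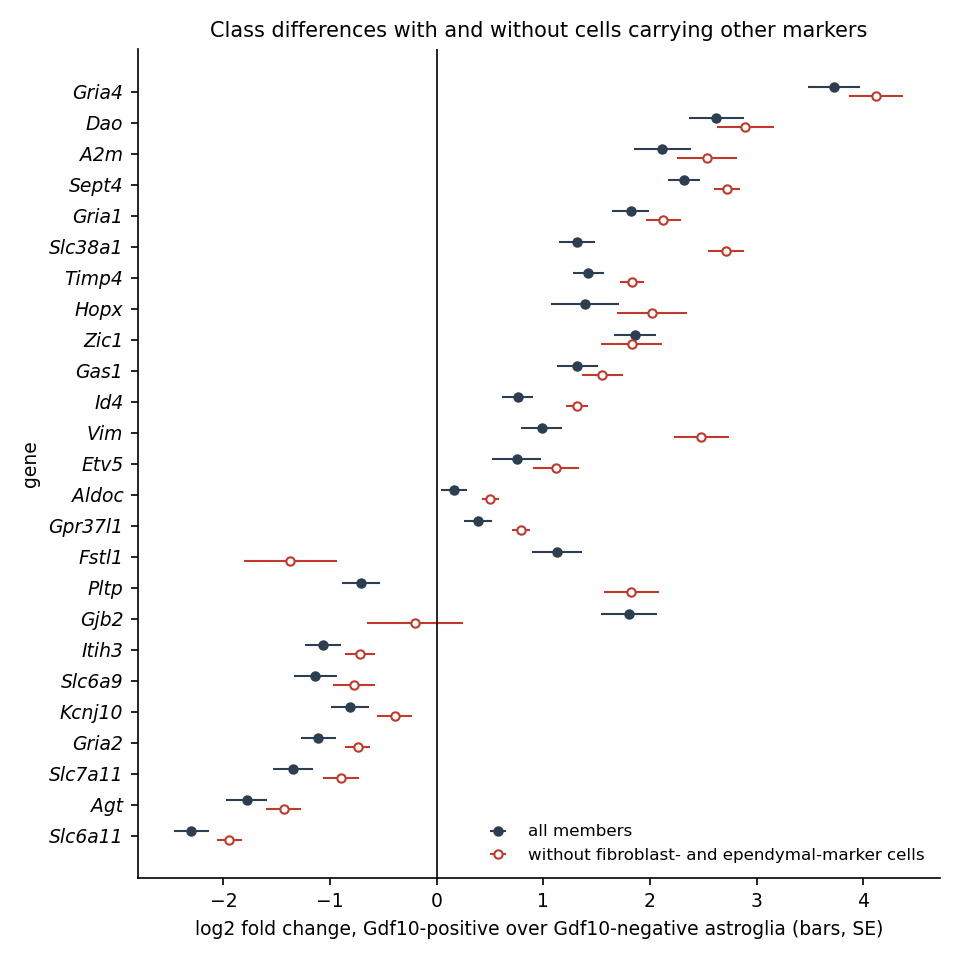
Log2 fold change of 25 genes (vertical axis) between Gdf10-positive and Gdf10-negative astroglia (horizontal axis; bars are standard errors), with all 192 members (filled) and with the fibroblast- and ependymal-marker cells left out (open). Fstl1, Pltp and Gjb2 lie on opposite sides of 0 under the 2 choices, and the Bergmann glia genes at the top lie above 0 under both.

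The genes with the largest changes came from more than 1 range. Among the 12 named as highest, Msx2, Ust, Abi3bp, Ctxn3 and Cacng5 had over 50% of their member UMIs in the Bergmann range, and Sfrp4, Cdh1, Prg4, Tspan11, Slc9a2 and Trabd2b had over 90% in fibroblast-marker cells. Slco4a1, a transporter of organic anions, was divided between them with 41 and 51 of 92 UMIs. Ctxn3, a small membrane protein, was at 172, 218, 187 and 159 CPM in members against 13.2, 21.4, 4.29 and 7.78 CPM (log2 fold change 3.89 ± 0.28 (SE), adjusted p = 1.81e-16). Cdh1, the epithelial adhesion molecule E-cadherin, was at 68.7, 37.3, 155 and 147 CPM against 0, 6.64, 2.14 and 7.78 CPM (log2 fold change 4.37 ± 0.45 (SE), adjusted p = 1.8e-08), and all 64 of its UMIs were in fibroblast-marker cells. The 6 of the 12 that could be tested without those cells were all called higher again. They had been picked for large changes in the same animals. Except for Slco4a1, most of their UMIs lay in cells that were kept, so the repeat call largely restates that choice. Among the 12 named as lowest were Igsf1, Sfrp5, Nkx6-2, Cd38 and Rgs6. Igsf1, a membrane glycoprotein of the immunoglobulin superfamily, was at 0, 0, 12.9 and 0 CPM against 69.0, 36.1, 54.6 and 75.6 CPM, and Cd38, an NAD-consuming ectoenzyme, at 6.87, 26.6, 12.9 and 19.1 CPM against 87.0, 106, 86.8 and 112 CPM (log2 fold change -2.58 ± 0.35 (SE), adjusted p = 6.42e-08). Beside these, 3 of 3 tested fibroblast markers were higher, while 6 of 6 ependymal and 4 of 7 oligodendrocyte markers were lower. Without the other-marker cells 1 fibroblast and 1 ependymal marker could be tested, and 0 of either were called. Of 7 oligodendrocyte markers, 1 was then higher and 3 lower. The named genes Hba-a1, Hba-a2, Hbb-bt, Enpp2 and Folr1 belong to blood or choroid plexus. Summed over 5 erythrocyte markers, Gdf10-negative astroglia held 9368, 4129, 162 and 1595 CPM and members 330, 511, 77.5 and 306 CPM, and over 6 choroid plexus markers the sums were 17162, 29077, 10829 and 3863 against 2069, 3817, 1945 and 2437 CPM. In members Folr1, Kl, Clic6 and Kcne2 were at 0 in both no-inhibitor animals, and the part of free RNA in these differences was not tested.

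The members were then set against narrower classes of Gdf10-negative astroglia. Against 831 Agt-positive cells, taken as non-telencephalic by Agt alone, 3910 genes were tested, 516 were higher (13.2%) and 472 lower (12.1%). DESeq2 called 388 higher and 205 lower. Against 781 Mfge8-positive, Agt-negative cells, taken as telencephalic by these genes alone, 4413 were tested, 344 were higher (7.80%) and 303 lower (6.87%). DESeq2 called 266 higher and 98 lower. Mfge8 was also detected in 54.2% of Agt-positive cells and 60% of Bergmann-range members, so it does not separate regions by itself. Both comparisons share the members with the one above, so their values are set side by side and no agreement is counted. Without the other-marker cells, 481 and 272 genes were called. Against Agt-positive cells these were 232 higher and 249 lower of 3171 tested. Against Mfge8-positive cells they were 164 higher and 108 lower of 3315 tested. Of the 12 named as highest against Agt-positive cells, 11 had over 90% of their UMIs in fibroblast-marker members, Ctxn3 being the exception (log2 fold change 5.64 ± 0.41 (SE), adjusted p = 2.57e-16). Mgp, for example, was at 3416, 4664, 6068 and 2922 CPM in members and 10.8, 17.9, 33.3 and 170.2 CPM in Agt-positive cells (log2 fold change 6.28 ± 0.98 (SE), adjusted p = 0.0241), and Eya2, with 80 UMIs in members, had 0 in Agt-positive cells. Of the 12 named as highest against Mfge8-positive cells, 9 were of that kind, and Msx2 (log2 fold change 4.93 ± 0.84 (SE), adjusted p = 0.000165), Ctxn3 (log2 fold change 4.32 ± 0.37 (SE), adjusted p = 1.98e-08) and Cacng5 (log2 fold change 4.31 ± 0.46 (SE), adjusted p = 3.52e-07) were of the Bergmann range.

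Genes lower in members differed between these classes in their values. Slc6a11 was at 2596, 2707, 2773 and 2845 CPM in Agt-positive cells, every animal above the members' 391.8, 325, 219.7 and 229.6 CPM (log2 fold change -3.38 ± 0.16 (SE), adjusted p = 1.54e-23). Lgi1, a secreted synaptic organiser, was at 297, 278, 363 and 293 CPM against 55.0, 63.9, 38.8 and 12.8 CPM in members (log2 fold change -2.94 ± 0.25 (SE), adjusted p = 8.6e-14), and Kcnd2, a potassium channel subunit, was also lower (log2 fold change -3.49 ± 0.49 (SE), adjusted p = 1.03e-07). Against Mfge8-positive cells the lower genes included Meis2, a transcription factor, at 134, 105, 145 and 125 CPM against 20.6, 69.2, 19.4 and 38.3 CPM (log2 fold change -1.83 ± 0.32 (SE), adjusted p = 0.000209). Meis2 is on the list of non-telencephalic astrocyte markers, so the telencephalic name of these cells is not borne out by it. Mgll, which hydrolyses the endocannabinoid 2-arachidonoylglycerol, was at 382, 240.5, 328 and 307 CPM against 137, 79.9, 77.5 and 108 CPM (log2 fold change -1.78 ± 0.20 (SE), adjusted p = 7.26e-07). Of the Bergmann glia list, 6 genes were higher and 3 lower of 17 tested against Agt-positive cells, and 7 higher and 1 lower of 19 against Mfge8-positive cells. The median log2 fold changes of the list were -0.072 and 0.53, against 0.028 and -0.015 over all genes. Against Agt-positive cells the list as a whole was therefore not raised. Without the other-marker cells the counts higher and lower became 8 and 2 of 17, and 14 and 0 of 19. Over all genes they were then 232 and 249 of 3171, and 164 and 108 of 3315. The list medians were then 0.49 and 1.05, against 0.0071 and -0.014 over all genes.

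The last comparison asked whether inhibitors altered the members. Few genes passed, and all but Mbp (21 of 195 UMIs, 10.8%) had most of their UMIs in fibroblast-marker cells. Fold changes are given as no inhibitors over inhibitors, so a negative value is higher with inhibitors. Of 2969 genes tested between 2 animals without and 2 with inhibitors, 0 were higher without inhibitors (0%) and 19 were lower (0.640%), while 322 had an unadjusted p under 0.05, 130 of them higher. DESeq2 called 0. Of the 3757 member UMIs of those 19 genes, 86.2% came from fibroblast-marker cells, which held 31.2% of all member UMIs. Slc4a10, a sodium-coupled bicarbonate transporter, was at 289 and 287.5 CPM without inhibitors and 763 and 855 CPM with them, with no overlap (log2 fold change -1.50 ± 0.24 (SE), adjusted p = 0.000739). Of its 348 UMIs, 344 were in fibroblast-marker members, and within these alone it was at 1594 and 1185 CPM against 1470 and 2585 CPM, where the groups overlapped. Npr3, the natriuretic peptide clearance receptor, was at 6.87 and 37.3 CPM against 174 and 108 CPM (log2 fold change -2.54 ± 0.53 (SE), adjusted p = 0.0124), and within fibroblast-marker members at 37.9 and 116 CPM against 336 and 330 CPM. Ndrg1, a stress-responsive gene of differentiation, was at 82.5 and 159.7 CPM against 485 and 281 CPM (log2 fold change -1.62 ± 0.33 (SE), adjusted p = 0.0124), and within fibroblast-marker members at 455 and 581 CPM against 897 and 855 CPM, which did not overlap. Within fibroblast-marker members 7 of the 10 named genes (the same 10 listed next) did not overlap and lay higher with inhibitors, and Gm12840, Eya2 and Slc4a10 overlapped. The 10 were chosen for not overlapping over all members, where most of their UMIs came from these same cells. The count of 7 therefore largely restates that choice, and the share of all genes without overlap in these cells was not counted. The 10 named genes, Npr3, Tmtc1, Gm12840, Atp11a, Ehd3, Eya2, Nampt, Ndrg1, Slc4a10 and Mapk3, had 970 of 1049 member UMIs in fibroblast-marker cells, and none had enough UMIs to be tested without them. Leaving out 1 animal gave 7 calls (no inhibitors replicate 1), 0 (no inhibitors replicate 2), 18 (inhibitors replicate 1) and 103 (inhibitors replicate 2).

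**Figure D5:**
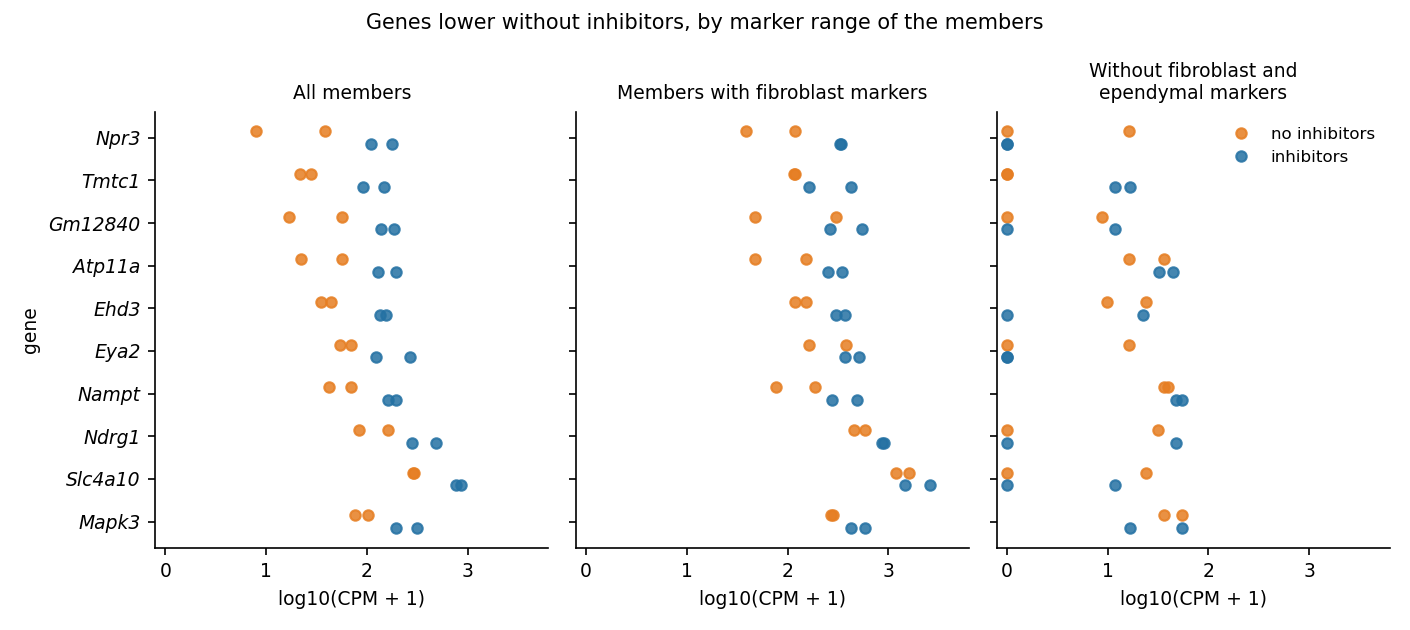
Levels of the 10 genes named as lower without inhibitors (vertical axis) on a log10(CPM + 1) scale (horizontal axis), each point 1 animal, in all members (left), in members with fibroblast markers (middle) and in members without fibroblast or ependymal markers (right). The groups are apart in the left panel for all 10 genes, which were chosen for that, and in the middle panel for 7. In the right panel the points lie near 0 or overlap for most.

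Once fibroblast- and ependymal-marker cells were left out, 1781 genes were tested and 2 passed, Mbp lower (0.0561%) and Rps18 higher (0.0561%) without inhibitors; both are named because they were the only calls. Mbp encodes myelin basic protein of oligodendrocytes, and in all members it was at 206, 176, 427 and 421 CPM (log2 fold change -1.17 ± 0.27 (SE), adjusted p = 0.026). Its log2 fold change was -1.71 ± 0.26 (SE, adjusted p = 1.28e-07) without the other-marker cells. Summed over 8 oligodendrocyte markers, members held 770 and 783 CPM without inhibitors and 1881 and 1225 CPM with them, and Gdf10-negative astroglia 2515 and 1938 against 2903 and 3228 CPM; the part of oligodendrocyte RNA in this difference was not tested. For Rps18, a ribosomal protein gene, the log2 fold change came to 1.24 ± 0.27 (SE, adjusted p = 0.00362). In the 60 Bergmann-range members alone, Mbp was the 1 gene called of 860 tested.

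Genes that digestion is known to induce were not called between the inhibitor groups, where 0.640% of all genes tested were. Of 31 immediate-early genes, 8 were tested and 0 called, with 1 at an unadjusted p under 0.05, and DESeq2 called 0. Of 14 heat shock genes, 11 were tested and 0 called, with 4 at an unadjusted p under 0.05. With cells thinned to 1000 UMIs, Hsp90aa1, a heat shock protein of the HSP90 family, was called lower without inhibitors (log2 fold change -1.34, edgeR adjusted p = 0.0347), and Hspb1 was called in the interaction described next. Of the study's activation list from other animals, 9 of 25 genes were tested and 0 called (2 unadjusted), and of the list it derived from these libraries, which is not independent evidence of direction, 2 of 19 were tested and 0 called (0 unadjusted). The first study list summed to 2000 and 2199 CPM without inhibitors and 2482 and 2577 CPM with them, so the groups did not overlap and lay higher with inhibitors. The second summed to 564 and 729 CPM against 898 and 466 CPM, which overlap; in Gdf10-negative astroglia it was at 692 and 790.4 CPM against 506 and 471 CPM. In fibroblast-marker members both lists lay higher without inhibitors and did not overlap, the first at 2998 and 2881 CPM against 2566 and 2313 CPM and the second at 1783 and 2021 CPM against 1233 and 603 CPM. In Bergmann-range members the first list lay the other way without overlap, at 1995 and 2057 CPM against 2380 and 2106 CPM. The second overlapped there. Heat shock genes summed to 4420 and 4909 CPM against 5745 and 5180 CPM in members, and overlapped within the Bergmann, few-marker and fibroblast ranges. With 2 animals a group, a lack of overlap gives an exact permutation p of 0.333 at best, so it shows no effect by itself. Summed immediate-early levels were 1471 and 1528 CPM without inhibitors and 2010 and 1461 CPM with them, which overlap. In Bergmann-range members the sums were 1492 and 1534 CPM against 1443 and 894 CPM, and in fibroblast-marker members 2049 and 2045 against 2467 and 2274 CPM. Neither of these 2 pairs overlapped, and they lay in opposite directions. Fos, the prototype immediate-early gene, had 7 UMIs in all members together, at 13.7, 21.3, 0 and 6.38 CPM, so a change of it was not detectable at this depth.

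Whether inhibitors acted differently on members and on Gdf10-negative astroglia was tested as an interaction over 9162 genes. The value is the log2 fold change of no inhibitors over inhibitors in members minus that in Gdf10-negative cells. It was positive for 4 called genes (0.0437%) and negative for 15 (0.164%), and 640 had an unadjusted p under 0.05. DESeq2 called 1, Ifi27l2a. Slc4a10 was among the negative ones (log2 fold change -1.89 ± 0.30 (SE), adjusted p = 1.28e-06), with Gdf10-negative levels of 69.0, 108, 66.4 and 70.0 CPM. Ifi27l2a, an interferon-induced gene, was at 13.7, 26.6, 575 and 63.8 CPM in members, so that 1 animal, inhibitors replicate 1, held nearly all of its level, and 105 of its 106 UMIs were in fibroblast-marker cells (log2 fold change -4.59 ± 0.57 (SE), adjusted p = 1.8e-11). Nnat, neuronatin, was at 385, 1198, 297 and 306 CPM, with 314 of 375 UMIs in the 7 ependymal-marker members (log2 fold change 1.45 ± 0.30 (SE), adjusted p = 0.013). Sncb, the neuronal beta-synuclein gene, was at 137, 15.97, 6.46 and 6.38 CPM (log2 fold change 4.08 ± 0.87 (SE), adjusted p = 0.00481), and 11 neuronal markers summed to 1072 CPM in members of no inhibitors replicate 1 against 89.3 to 162 CPM in the others, whose part in the result was not tested. Without the other-marker cells, 7402 genes were tested and 2 were called, Mgp and Snhg11, neither of them among the 19. Leaving out 1 animal gave 4 calls (no inhibitors replicate 1), 10 (no inhibitors replicate 2), 1 (inhibitors replicate 1) and 49 (inhibitors replicate 2).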

How the data were processed

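Whole-brain suspensions of 4 mice, 2 without and 2 with inhibitors, were profiled on the 10x Genomics 3′ version 2 chemistry. The authors ran Cell Ranger 3.0.0 on GRCm38 (mm10) and deposited raw UMI counts for 31053 genes as 1 matrix per animal, unnormalized and before their own cell filtering. Library totals were 5134359 to 7529804 UMIs. The members and all gene lists were chosen with earlier results of these data known. Replicates are animals, and p-values measure the spread between them.

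Counts of cells were summed per animal and class. Sums were filtered with filterByExpr, scaled by TMM and fitted in edgeR 4.0.16 (R 4.3.3) with robust quasi-likelihood, and p-values were adjusted by Benjamini-Hochberg over all genes tested. Calls needed an adjusted p under 0.05 together with a log2 fold change beyond 0.58 either way. The animal was a block in the class comparisons and the interaction, and no covariate was used between inhibitor groups. The fit was tested on simulated data. CPM is a gene's share of the class's UMIs in an animal, per 1000000, and gene length was not used. Shares of cells were compared by a two-sided exact permutation test, whose smallest p with 2 against 2 is 0.333. Where a count is 0, 3 counts of the total set the limit.

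Named genes were the 12 called genes with the largest log2 fold change in each direction that changed the same way in 4 of 4 animals with a mean of at least 50 CPM in the higher class, the 10 called genes with the largest change that did not overlap between inhibitor groups, and list members. Leading genes of a marker range had at least 200.0 CPM in it and at least 10 UMIs in Gdf10-negative astroglia. Microglia-, endothelial- and oligodendrocyte-like cells, and the other non-astroglial classes, carried at least 3 markers of their kind and at least 2 more than of any other. Doublets were not removed in the main results. Simulated doublets were scored for an alternative (2 simulated per cell, 20 neighbours) on exact principal components. An approximate decomposition tried first did not repeat between runs and was replaced, and the counts of called genes in both inhibitor comparisons moved with that change, so these counts without doublets depend on how doublets are scored. Alternatives were DESeq2 1.42.0, no filter, each animal left out, a Gdf10 limit of 2 UMIs, limits of 800 genes and 10% mitochondrial UMIs, no doublets, 0 exclusion genes, cells thinned to 1000 UMIs, and fits without or with a block. The marker ranges, and the results without fibroblast- and ependymal-marker cells or in Bergmann-range members alone, were added after seeing the data.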

Additional observations from a re-analysis of the deposited data

Results flagged for a closer look

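The effect of inhibitors differed between Gdf10-positive and Gdf10-negative astroglia for 19 genes by the test of the interaction (edgeR quasi-likelihood, Benjamini-Hochberg). The 10 named genes had interaction log2 fold changes of -4.59 for Ifi27l2a, 4.08 for Sncb, -3.37 for Npr3, -2.51 for Penk, -2.35 for Atp11a, 2.05 for Crip1, -1.89 for Slc4a10, -1.83 for Hspb1, -1.62 for Ndrg1 and 1.45 for Nnat. Penk, the proenkephalin gene, was at 13.7 and 101 CPM in members without inhibitors and 246 and 236 CPM with them. Hspb1, a small heat shock protein gene, was at 75.6 and 47.9 CPM against 246 and 121 CPM. Crip1 was at 131 and 122 CPM against 25.8 and 63.8 CPM. Over the 4 animals, fibroblast-marker cells held 2 of 2, 17 of 19, 38 of 38 and 36 of 37 Penk UMIs. Of Hspb1 they held 11 of 11, 8 of 9, 29 of 38 and 16 of 19. Members outside the fibroblast and ependymal ranges held 12 of 19, 4 of 23, 2 of 4 and 3 of 10 Crip1 UMIs. Without the fibroblast- and ependymal-marker cells Npr3 and Penk could not be tested, and none of the other 8 was called. Sncb (4.57) and Hspb1 (-1.98) kept interaction log2 fold changes at least as large as with those cells, but on very few UMIs. Over the 4 animals, Sncb then had 20, 1, 0 and 1 member UMIs and Hspb1 had 0, 1, 0 and 2. The count of 19 became 4 without no inhibitors replicate 1, 10 without no inhibitors replicate 2, 1 without inhibitors replicate 1 and 49 without inhibitors replicate 2.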

How the results depend on the processing

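Counts of called genes against Gdf10-negative, Agt-positive and Mfge8-positive astroglia (922, 988 and 647) became 502, 593 and 364 by DESeq2, 391, 626 and 363 with 0 exclusion genes, 157, 292 and 148 with cells thinned to 1000 UMIs, and 347, 481 and 272 without fibroblast- and ependymal-marker cells. The stricter quality limits gave 450 and 424 for the latter pair, and no filter on low counts gave 982 against Mfge8-positive cells. Leaving out 1 animal gave 669 to 833, 834 to 988 and 480.0 to 717. The 19 genes called between inhibitor groups became 0 by DESeq2 or with 0 exclusion genes, 31 with no filter, 2 with thinned cells, 2 without fibroblast- and ependymal-marker cells, 1 in Bergmann-range members, and 0 to 103 with 1 animal left out. The 19 of the interaction became 1 by DESeq2, 5 with stricter limits, 4 without the highest doublet scores, 0 with 0 exclusion genes or in Bergmann-range members, 2 without fibroblast- and ependymal-marker cells, and 1 to 49 with 1 animal left out. The Bergmann-range share (31.2%) was 65.8% at 2 Gdf10 UMIs, 42.7% with stricter limits and 29.2 to 33.6% with 1 animal left out. The cause of these shifts was not tested. The choices also changed the number of cells or of genes tested, some to more and some to fewer.

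Replicate numbers share only a number here: deviations of same-numbered animals correlated at -0.00969 over 2969 genes. The fit with the replicate block called 1 gene, Slc4a10 (log2 fold change -1.50).

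The difference in share of astroglia (no inhibitors minus inhibitors) turned to 0.229 percentage points with cells thinned before detection, and that in share of all cells to -0.00391 at 2 Gdf10 UMIs. Against Gdf10-negative astroglia, log2 fold changes turned without fibroblast- and ependymal-marker cells for Gjb2 (-0.20), Fstl1 (-1.37), Klf2 (-0.19), Hsp90aa1 (0.34), Hsph1 (0.11), Itm2a (-0.73), Pltp (1.83) and Rarres2 (0.63), and with thinned cells for Bmpr1a (-0.072) and Hsph1 (0.11). In the interaction they turned without those cells for Ifi27l2a (3.51), Ndrg1 (0.17) and Nnat (-0.094), in Bergmann-range members for Sncb (-4.38), Atp11a (6.09), Ndrg1 (6.24) and Nnat (-2.13), at 2 Gdf10 UMIs for Sncb (-4.83) and Nnat (-2.88), and with 0 exclusion genes for Nnat (-1.19). Some of these values rest on very few member UMIs. Bergmann-range members held 3 of Atp11a and 2 of Ndrg1. Ifi27l2a had 0, 1, 0 and 0 in the 4 animals without the fibroblast- and ependymal-marker cells. Of all alternative values for single genes, 1643 kept direction and side of the threshold, 368 kept direction only and 20 turned. With 192 cells, 1 Gdf10 UMI in most and 2 animals a group, small changes were not detectable at this depth.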

Other observations

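Among astroglia with 6 or more Bergmann markers and neither other marker set, the share with a Gdf10 UMI was 79.1% ± 7.28 without inhibitors and 97.4% ± 3.72 with them (SD, n = 2 animals each), a difference for which the exact permutation p was 0.333, the smallest it can give. Among fibroblast-marker astroglia the share was 30.6% ± 0.884 and 45.6% ± 14.03. Of the 58 fibroblast-marker astroglia, 23 (39.7%) had a Gdf10 UMI, and with cells thinned to 1000 UMIs the share was 7.02%.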
